A study of Mus musculus with 2 samples.

Results

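The regional identity of the forebrain was followed through 7 transcription factor genes, Lhx2, Emx1, Emx2, Nr2f1, Nr2f2, Gsx2 and Meis2, chosen by symbol and matched by Ensembl gene ID to the rows of the deposited expression table. Of these 7 genes, 5 have a row among the 10666 genes of the table, namely Lhx2, Emx2, Nr2f1, Nr2f2 and Meis2. Emx1 and Gsx2 have no row in the table used here, so they have no value below. The cells came from wild-type C57BL/6 mouse embryos at embryonic day 14.5, from tissue labelled dorsal telencephalon, and had been expanded as neurospheres, which are floating spheres of dividing neural progenitors, in medium with B27 and N2 supplements, 10 ng/ml EGF and 10 ng/ml bFGF. There are 2 replicate cultures of this 1 condition, so there was nothing to compare between groups and the values below carry no p-values. The table holds 5748 cells of culture 1, at a median of 19477 UMIs per cell, and 7057 cells of culture 2, at a median of 14637. Across the cultures, 48 cell barcodes occur in both, which involves 96 cells.

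These genes assign position in the embryonic telencephalon. Lhx2 is a LIM-homeodomain factor that specifies cortex, and Emx1 and Emx2 are homeodomain factors of the dorsal, or pallial, ventricular zone, with Emx2 graded towards its caudal and medial side. Nr2f1 (COUP-TFI) and Nr2f2 (COUP-TFII) are closely related orphan nuclear receptors that are graded across the cortex, with Nr2f2 also known from the caudal ganglionic eminence. Gsx2 specifies the lateral ganglionic eminence, the progenitor zone next to the cortex, and Meis2 is a TALE-class homeodomain cofactor that is strong in the striatal lineage and present in pallial cells as well.

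In GRCm38 with GENCODE annotation, Lhx2 lies at chr2:38339281-38369733 on the plus strand and Meis2 at chr2:115863064-116065839 on the minus strand. Emx2 lies at chr19:59458372-59465357 on the plus strand, and Nr2f1 and Nr2f2 lie on the minus strand at chr13:78188973-78199757 and chr7:70351944-70366735. The genes without a row are Emx1 at chr6:85187438-85204462 and Gsx2 at chr5:75075601-75077893, both on the plus strand. Emx2 overlaps the antisense gene Emx2os and Nr2f1 overlaps A830082K12Rik, and both of these have rows. Whether the counting used strand is not given in the sources used here. It was therefore not checked whether reads of each overlapping pair were kept apart.

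Nr2f1 and Nr2f2 were also the pair found most often in the same cells relative to depth, and reads of near-identical copies can be divided between them, so their most alike coding stretch is shown. It is 150 coding bases within exon 1 of each gene, at chr13:78198193-78198342 for Nr2f1 and chr7:70359961-70360110 for Nr2f2 (GRCm38, minus strand), and encodes part of the zinc-finger DNA-binding domain. The bases are written 5′ to 3′ as transcribed, and capitals mark the 15 bases that differ between the genes.
Nr2f1: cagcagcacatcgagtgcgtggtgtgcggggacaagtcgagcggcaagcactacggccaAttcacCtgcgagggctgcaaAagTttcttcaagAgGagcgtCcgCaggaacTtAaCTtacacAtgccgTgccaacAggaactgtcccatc
Nr2f2: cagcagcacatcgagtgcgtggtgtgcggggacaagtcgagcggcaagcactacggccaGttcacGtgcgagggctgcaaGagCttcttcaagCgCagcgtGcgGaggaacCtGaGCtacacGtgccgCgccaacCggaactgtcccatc
The stretches are 90% identical. Over all annotated transcripts, 39 words of 31 bases are shared by the genes, which is 0.766% of the 5090 words of Nr2f1 and 0.456% of the 8550 words of Nr2f2. None of the 39 falls in the last 500 bases of a transcript of either gene, the end from which a 3′ library is read. Nr2f6, the third COUP-TF gene, shares no word with either. Emx2 shares none with Emx1 and Lhx2 none with its paralog Lhx9, while Meis2 shares 2 words with Meis1, both within the last 500 bases of a Meis2 transcript.

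The missing rows of Emx1 and Gsx2 do not show by themselves whether the genes were expressed. By the study's methods, genes expressed in too few cells were removed, and a row can be missing for that reason. The table holds 10130 of 21951 annotated protein-coding genes (46.1%), but only 2 of 1331 with a single exon and 543 of 3747 with 2 or 3 exons (14.5%), against 62.3% of those with 6 or more. Gsx2 has at most 2 exons and Emx1 at most 3, although Emx2, Nr2f1 and Nr2f2, with 3 each, have rows. Why the rows are missing was not tested. Of a list of pallial patterning genes, 9 of 28 have a row, and of a list of subpallial patterning genes 8 of 27. Olig1, Neurog2, Eomes, Tbr1, Dlx1, Dlx2 and Nkx2-1 are among those without one, so several defining markers of both territories could not be looked at.

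The members with a row differed widely in the share of cells in which they had a value above 0. Meis2 was detected in 4315 of 5748 cells of culture 1 (75.1%, exact 95% binomial interval 73.9 to 76.2) and in 4651 of 7057 cells of culture 2 (65.9%, interval 64.8 to 67.0). Lhx2 was detected in 43.6% of cells of culture 1 (interval 42.3 to 44.9) and in 45.0% of culture 2 (interval 43.8 to 46.1). Nr2f1 had 44.5% (interval 43.2 to 45.8) and 35.9% (interval 34.8 to 37.0). Meis2 was therefore the most widely detected in both cultures, and Lhx2 and Nr2f1, whose intervals overlap in culture 1 and not in culture 2, came next. Emx2 was detected in 21.8% (interval 20.8 to 22.9) and 21.1% (interval 20.1 to 22.0). Nr2f2 was rare, with 96 cells in culture 1 (1.67%, interval 1.35 to 2.04) and 116 in culture 2 (1.64%, interval 1.36 to 1.97). These intervals cover counting error only. No cell group that should lack these genes was named, so the share that free RNA alone would give was not measured.

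Detection depends on depth, and culture 1 was the deeper one. In the deposited table the value of 1 UMI is not the same for every gene and culture. After multiplication by the cell's depth over the mean depth, the smallest values of a gene in a culture gather at 1 level, and this level was 1.16 for Lhx2 in culture 1 and 0.866 in culture 2, 1.15 and 0.862 for Emx2, 0.971 and 0.998 for Nr2f1, 1.32 and 0.767 for Nr2f2, and 0.952 and 1.04 for Meis2. Levels on the deposited scale were therefore not compared between the cultures. Values divided by this level and rounded are called estimated UMIs here, and 66.7% to 93.1% of a member's nonzero values lay within 0.2 of a whole number before rounding. The lowest shares were those of Nr2f2 and Meis2 in culture 1 (66.7% and 67.4%), where the estimate is least exact.

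On this scale, each cell was thinned to 10000 UMIs, which left out 353 cells of culture 1 and 635 of culture 2 that had fewer. The thinned detection of Lhx2 was 27.5% in culture 1 and 34.5% in culture 2, a wider gap than before thinning. That of Nr2f1 was 27.2% and 25.9%, so the gap of the unthinned shares became smaller. Meis2 had 55.7% and 53.2%, Emx2 11.7% and 14.2%, and Nr2f2 0.854% and 1.14%. In estimated UMIs per 10000 UMIs, Lhx2 had 0.366 in culture 1 and 0.490 in culture 2, Emx2 0.129 and 0.160, Nr2f1 0.352 and 0.345, Nr2f2 0.00994 and 0.0137, and Meis2 0.924 and 0.890. Lhx2 and Emx2 were thus higher in culture 2, while the 95% Poisson intervals of Nr2f1 (0.342 to 0.363 and 0.334 to 0.356), of Meis2 (0.907 to 0.942 and 0.873 to 0.908) and of Nr2f2 (0.00822 to 0.0119 and 0.0116 to 0.0160) overlapped. With 2 cultures of 1 condition, this difference has no spread to be set against.

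**Figure D1:**
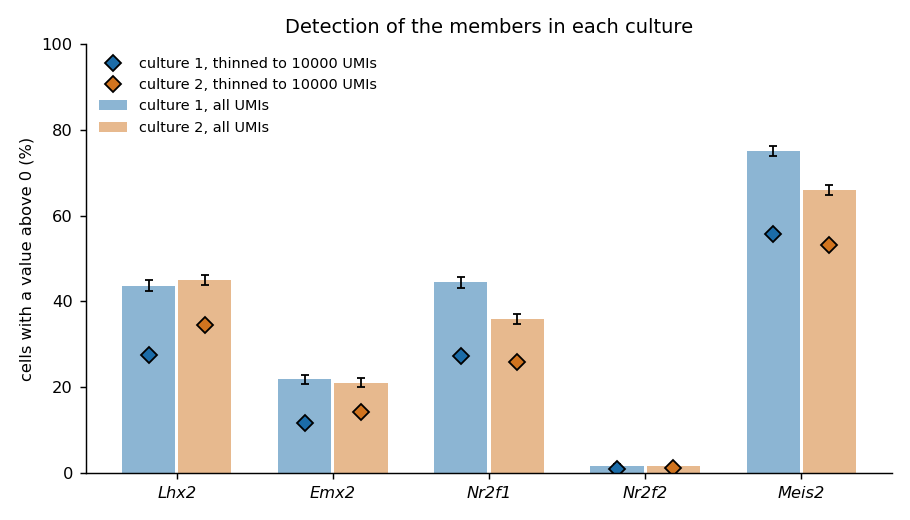
Share of cells (%) with a value above 0 for each member with a row, by culture. Bars give all UMIs with exact 95% binomial intervals, and diamonds give cells thinned to 10000 UMIs, at which Meis2 stands at 55.7% and 53.2%, Lhx2 at 27.5% and 34.5%, and Nr2f2 at 0.854% and 1.14%.

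Most cells in which a member was found carried little of it. Of the Emx2 cells, 81.0% in culture 1 and 83.8% in culture 2 held 1 estimated UMI. For Nr2f2 these shares were 85.4% and 79.3%, for Lhx2 57.2% and 58.6%, for Nr2f1 60.9% and 67.2%, and for Meis2 35.2% and 46.3%. Counting the 5 members together, 8.80% of cells of culture 1 and 11.2% of culture 2 held none of them, while 35.5% and 35.2% held 2 and 5.65% and 3.94% held 4. All 5 were found in 3 cells of culture 1 and 2 cells of culture 2.

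Other regional genes set the scale of these values. In the pallial list, Pax6, a homeodomain factor of dorsal radial glia, was detected in 21.1% of cells of culture 1 and 23.1% of culture 2. The highest of the list was Tcf4 (95.7% and 94.7%), a widely used E protein, and the lowest Gli3 (5.93% and 6.04%), the repressor of ventral fates. In the subpallial list the highest was Olig2, a basic helix-loop-helix factor of ventral and of glial progenitors (97.3% and 91.9%), and the lowest was Foxp2 in both cultures (4.37% and 2.15%). Of the caudal and non-telencephalic list, 3 of 28 genes have a row, Nkx2-2 (28.1% and 26.2%), Dbx2 (53.1% and 42.3%) and Tcf7l2 (49.3% and 36.8%). Genes with too few cells had been filtered out by the authors, so every gene with a row is detected in some cells.

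The authors deposited for each cell a cell-cycle position, an angle between 0 and 2π. A gene was counted as varying with it where 2 harmonics of the angle accounted for an R² of at least 0.05 of log2(value + 1) in both cultures. None of the 5 members did, where 428 of 10666 genes did (4.01%). Lhx2 came closest, with an R² of 0.0337 in culture 1 and 0.0541 in culture 2, and 5.51% of genes had a lower-of-the-cultures R² as high. At a threshold of 0.02, which 8.34% of all genes passed, Lhx2 alone among the members was counted. With total UMIs in the fit its values were 0.0213 and 0.0487. The other members had an R² of at most 0.0121 in either culture, and 0.0121 was that of Nr2f1 in culture 1.

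Lhx2 was highest around the middle of the circle in both cultures. A periodic loess line of log2(value + 1) peaked at 0.920π (culture 1) and at 0.915π (culture 2), and spanned 0.43 and 0.50 on the log2 scale. In 8 equal bins of the position, the bin from 0.75π to 1π was the highest and that from 1.75π to 2π the lowest in both cultures. In culture 1 these held 0.488 and 0.279 estimated UMIs per 10000 UMIs, a ratio of 1.75. In culture 2 they held 0.734 and 0.348, a ratio of 2.11. The thinned detection followed, at 36.2% against 22.0% in culture 1 and 48.5% against 27.1% in culture 2. Sorted by the Seurat stage instead, Lhx2 had 0.279 estimated UMIs per 10000 UMIs in G1, 0.446 in S and 0.394 in G2M cells of culture 1, and 0.360, 0.628 and 0.641 in those of culture 2. G1 cells were thus the lowest in both cultures, and the order of S and G2M differed between them.

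For the remaining members the stages were compared on the same scale. Nr2f1 had 0.308 estimated UMIs per 10000 UMIs in G1 and 0.402 in G2M cells of culture 1, and 0.310 and 0.406 in culture 2, with S cells between them in both. Meis2 ranged from 0.864 in G1 to 0.993 in G2M cells of culture 1 and from 0.865 to 0.923 in culture 2. The G1 and G2M intervals of Meis2 overlapped in culture 2 but not in culture 1. Emx2 was lowest in S cells, at 0.116 in culture 1 and 0.152 in culture 2, and highest in G2M cells, at 0.148 and 0.168. Nr2f2 had 0.00738 in G1, 0.00803 in S and 0.0153 in G2M cells of culture 1, where the intervals of G1 and G2M did not overlap, and 0.0135, 0.0130 and 0.0144 in culture 2, where all overlapped. The loess line of Nr2f2 peaked at 1.055π in the first culture but at 0.140π in the second, so the cultures gave no common position for it.

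**Figure D2:**
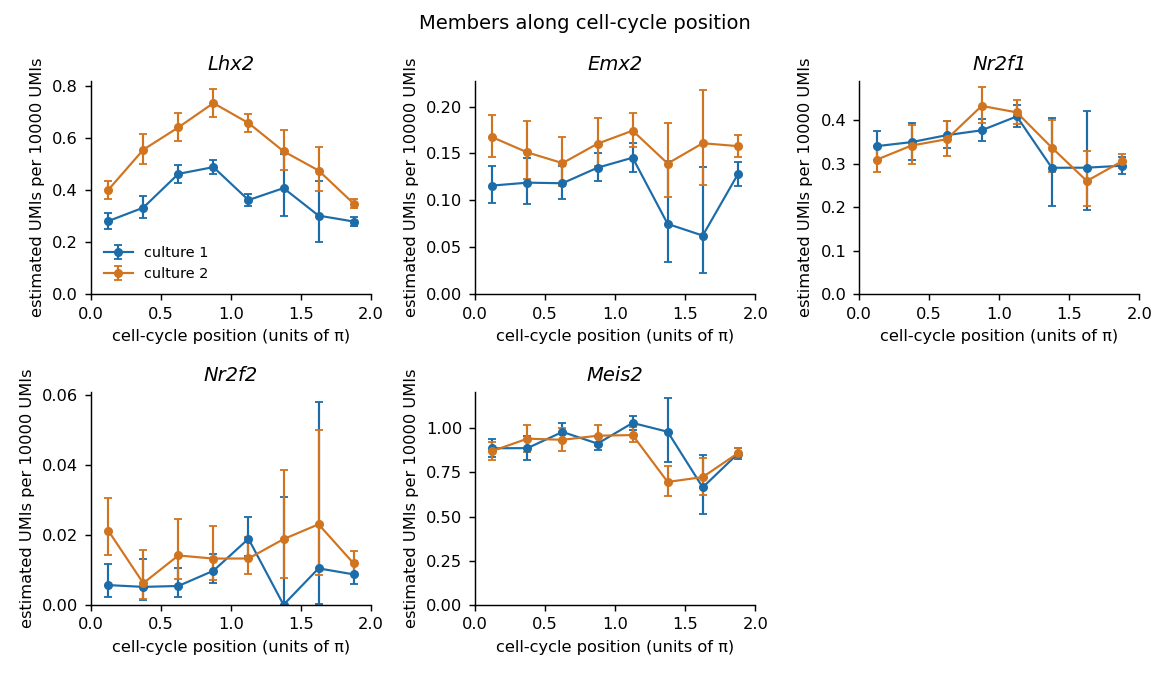
Estimated UMIs per 10000 UMIs (y axes from 0) of each member in 8 bins of the cell-cycle position (x axes, in units of π), by culture, with 95% Poisson intervals. Lhx2 is highest from 0.75π to 1π in both cultures (0.488 and 0.734) and lowest from 1.75π to 2π (0.279 and 0.348), while the bins from 1.25π to 1.75π hold as few as 64 cells.

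The members were next compared with each other, cell by cell. In each culture the correlation of log2(value + 1) was taken across cells after removing total UMIs and cell-cycle position, and a pair was counted where it reached 0.1 in size with the same sign in both cultures. None of the 10 pairs did, and none reached 0.05 either. Between the members and all genes, 0.0488% of 53325 correlations passed 0.1 and 0.583% passed 0.05. By the smaller size of the 2 cultures, the largest pair was Lhx2 with Nr2f2 (-0.049 in culture 1 and -0.063 in culture 2), followed by Nr2f1 with Nr2f2 (0.061 and 0.045). Nr2f1 with Meis2 had 0.069 in culture 2 but 0.020 in culture 1. The cells of a culture share 1 library, and correlations of this size between sparse values are given only as a description.

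Detection in the same cell was set against the number expected if 2 members were independent among cells of the same depth, with cells divided into 10 bins of total UMIs. For the pairs without Nr2f2 the ratio of observed to expected cells lay between 0.978 and 1.05. Lhx2 and Emx2, which share the pallial progenitor zone in the embryo, were found together in 642 cells of culture 1 where 625 were expected (ratio 1.03, 95% Poisson interval 0.949 to 1.11) and in 735 of culture 2 where 720 were expected (1.02, 0.949 to 1.10). Lhx2 and Meis2 were found together in 1984 cells of culture 1, where 1981 were expected, and in 2140 cells of culture 2, where 2161 were. Emx2 and Meis2 were found together in 1040 cells of culture 1 where 998 were expected, and in 1058 of culture 2 where 1031 were. The intervals of the pairs without Nr2f2 include 1. A Poisson interval is wider than the spread of shared cells when the totals of both members are fixed, so this does not show independence. The ratios of these pairs stayed close to 1.

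The pairs with Nr2f2 departed from this. Lhx2 and Nr2f2 were detected together in 24 cells of culture 1 where 46.8 were expected (ratio 0.513, 95% Poisson interval 0.329 to 0.763) and in 22 cells of culture 2 where 55.4 were expected (0.397, 0.249 to 0.601). Emx2 and Nr2f2 were together in 10 cells where 23.8 were expected (0.420, 0.202 to 0.773) and in 14 where 27.0 were (0.519, 0.284 to 0.871). Nr2f1 and Nr2f2 were together in 65 cells where 47.4 were expected (1.37, 1.06 to 1.75) and in 62 where 45.2 were (1.37, 1.05 to 1.76). Cells with Nr2f2 thus held Lhx2 and Emx2 less often, and Nr2f1 more often, than cells of their depth in both cultures, while Meis2 had ratios of 0.935 and 0.907 with intervals that include 1. The intervals cover the counting error of the observed cells only and were not adjusted for the 10 pairs.

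**Figure D3:**
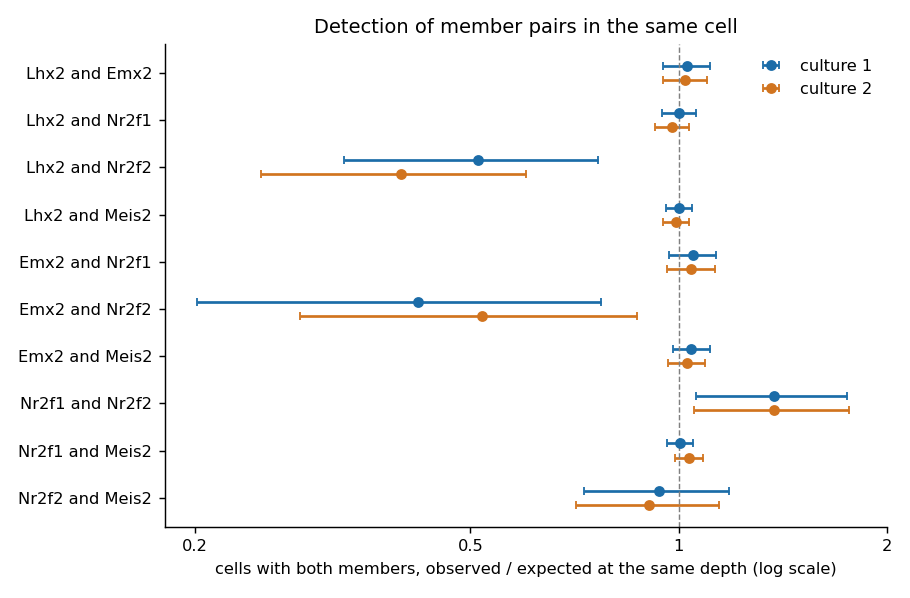
Cells in which both members of a pair were detected, as the ratio of observed to expected among cells of the same depth (x axis, log scale), for the 10 pairs in each culture, with 95% Poisson intervals of the observed number. Pairs of Nr2f2 with Lhx2 (0.513 and 0.397) and Emx2 (0.420 and 0.519) lie below 1, Nr2f1 with Nr2f2 lies above it (1.37 in both), and the pairs without Nr2f2 lie near 1.

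The few cells with Nr2f2 were described by the other genes they held. Most of these cells (85.4% in culture 1 and 79.3% in culture 2) held 1 estimated UMI of Nr2f2. For Nr2f2, the 5 most positively correlated genes of the table were Fbln2, Mylk, 9330188P03Rik, Trp53i11 and Tcf7l2, by the lower of the 2 correlations. Fbln2, which encodes an extracellular matrix fibulin, had 0.118 in culture 1 and 0.152 in culture 2, and Mylk, a myosin light chain kinase, 0.105 and 0.149. They were the only 2 genes past 0.1 in both cultures. Fbln2 was detected in 54 of the 96 cells with Nr2f2 in culture 1 (56.2%, against 33.7% of all cells at their depth) and in 78 of the 116 in culture 2 (67.2% against 30.9%). Mylk was detected in 35.4% against 12.6% and in 25.0% against 4.30%. Tcf7l2, a transcription factor of Wnt signalling that is strong in the thalamus, was detected in 72.9% against 54.5% and in 66.4% against 39.3%. Among the 3 most negative correlates was Gatm, an enzyme of creatine synthesis, with 86.5% against 96.2% and 70.7% against 81.6%. Since these genes were chosen for their correlation with Nr2f2, the shares describe them and test nothing.

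**Figure D4:**
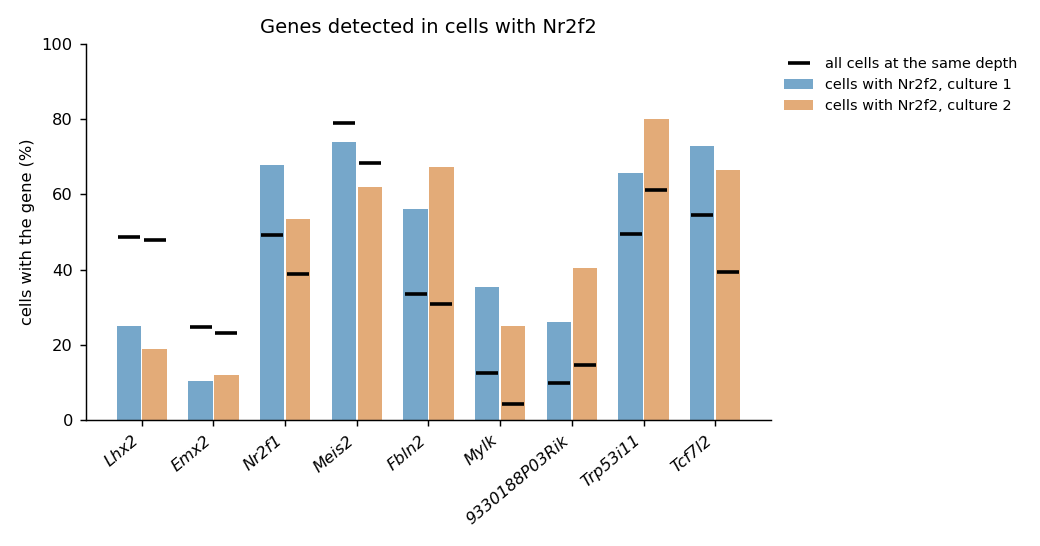
Share (%) of the cells with Nr2f2 (96 in culture 1, 116 in culture 2) in which each of the other members and the 5 most positive correlates of Nr2f2 was detected (bars), with the share in all cells of the same depth (black marks). Lhx2 stands at 25.0% and 19.0% against 48.7% and 47.8%, and Fbln2 at 56.2% and 67.2% against 33.7% and 30.9%.

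Lhx2 had the most correlates. Past 0.1 in both cultures, 13 genes were positive and 6 negative. The highest was Slc1a3, the glutamate transporter of radial glia and astrocytes (0.198 in culture 1 and 0.199 in culture 2), followed by Mt3, a metallothionein (0.177 and 0.212), Igfbp2, an insulin-like growth factor binding protein (0.143 and 0.146), the bicarbonate transporter gene Slc4a4 (0.165 and 0.140) and Pea15a (0.136 and 0.138). The most negative was Basp1, a membrane protein of growth cones (-0.213 and -0.172), then the elongation factor gene Eef1a1 (-0.127 and -0.130) and Trp53i11 (-0.118 and -0.125). From the 25% of cells with the lowest to the 25% with the highest Slc1a3, Lhx2 went from 0.213 to 0.518 estimated UMIs per 10000 UMIs in culture 1 and from 0.287 to 0.683 in culture 2. Its thinned detection went from 18.1% to 36.7% and from 23.3% to 44.7%. Median depth was 15219 UMIs in the lowest and 20481 in the highest 25% of cells of culture 1, and 14130 and 14359 in culture 2.

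Meis2 had the opposite neighbour in Basp1. The correlates of Meis2 past 0.1 were 4 positive genes and 1 negative gene. Gap43, another growth cone protein, had 0.189 in culture 1 and 0.163 in culture 2, Basp1 0.158 and 0.166, Rtn1, a reticulon of neuronal cells, 0.139 and 0.131, and Stmn4, a stathmin that binds tubulin, 0.142 and 0.103. From the lowest to the highest 25% of cells by Gap43, Meis2 went from 0.737 to 1.25 estimated UMIs per 10000 UMIs in culture 1 and from 0.697 to 1.17 in culture 2. Slc1a3 and Gap43 were picked as the leading correlates of Lhx2 and Meis2 in these same cells, so the levels by their rank describe that choice and test nothing.

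Nr2f1 and Emx2 had no correlate past 0.1 in both cultures. For Nr2f1 the largest were Gap43 (0.078 and 0.102) and, on the negative side, Aldh1l1, a folate enzyme of astrocytes (-0.088 and -0.088). For Emx2 the largest was Ccnd2, which encodes a D-type cyclin (0.073 and 0.070), and the 3 most negative genes were the ribosomal protein genes Rps18, Rpl26 and Rpl32, none beyond -0.055 in either culture. None of the 38 genes of the 4 regional lists passed 0.1 with a member. Among them the largest by the lower culture was Zic1, a zinc-finger factor, with Lhx2 (0.081 and 0.089), followed by Tcf7l2 with Nr2f2 (0.069 and 0.118) and Tcf4 with Lhx2 (-0.068 and -0.065). Meis1, the paralog of Meis2, had 0.063 and 0.060 with Nr2f2. The median correlation over the 9 pallial genes was 0.00 and 0.01 with Lhx2 and 0.01 and 0.02 with Emx2.

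The cells were also divided into clusters without using the members, from the 1000 most variable genes that did not vary with cell-cycle position. Of 6 clusters, 5 had at least 50 cells in each culture, and the sixth, with 47 cells, 46 of them from culture 2, was not used. Cluster 1 (1731 cells of culture 1 and 2091 of culture 2) had Mt3 and Igfbp2 among its 3 leading genes, cluster 2 (1514 and 1753) was led by Kxd1, Igfbp2 and Slc1a3, cluster 3 (1121 and 1694) and cluster 4 (850 and 1264) both had Basp1 and Gap43 among theirs, and cluster 5 (531 and 209) was led by Ncald, Basp1 and Lhfpl3. Clusters are given by number here. Of the marker lists, that of oligodendrocyte progenitors (6 of 9 genes with a row) had its highest summed level of mean log2(value + 1) in cluster 5, at 6.66 in culture 1 and 7.44 in culture 2, against 2.89 to 3.88 and 3.11 to 3.42 in the others. That of astroglia (5 of 9 genes) was highest in cluster 1, at 3.43 and 2.87, and lowest in cluster 5, at 1.33 and 1.34, although 1 of its genes, S100b, was highest in cluster 5 (0.76 and 0.22, against at most 0.20 and 0.14 elsewhere). Cluster 5 was also highest for the neurons and neuroblasts list (5 of 13 genes), at 2.43 and 2.57 against 1.14 to 1.46 and 1.17 to 1.23, and lowest for the radial glia list (9 of 11 genes), at 15.9 and 18.6 against 20.4 to 22.0 and 19.7 to 20.8. No gene of the lists for microglia, endothelium, mesenchyme, blood, ependymal cells or intermediate progenitors has a row.

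No member differed between the highest and the lowest cluster by 0.5 or more of mean log2(value + 1) in both cultures, where 2.14% of all genes did. For Emx2 and Nr2f2 this was fixed by their low level. Their highest cluster means were 0.278 and 0.245 for Emx2 and 0.042 and 0.023 for Nr2f2. Nr2f1, with a highest mean of 0.567 in culture 1, had little room to reach it. Lhx2 differed by 0.44 in culture 1 and 0.30 in culture 2, highest in cluster 1 and lowest in cluster 5 in both. Meis2 differed by 0.32 and 0.36, which is more than Lhx2 by the lower of the cultures. Its highest and lowest clusters were 3 and 5 in culture 1 but 5 and 1 in culture 2. In estimated UMIs per 10000 UMIs, Lhx2 had 0.453 in cluster 1 and 0.180 in cluster 5 of culture 1, and 0.588 and 0.334 in culture 2. Emx2 was also lowest in cluster 5, at 0.0980 and 0.102, against 0.118 to 0.148 and 0.155 to 0.165 in the other clusters. Its 95% Poisson interval there (0.0787 to 0.121 and 0.0689 to 0.146) overlapped those of clusters 3 and 4 in each culture and that of cluster 1 in culture 1, so Emx2 in cluster 5 is not set apart from all of the others.

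Nr2f1 went the other way in culture 2, with 0.565 estimated UMIs per 10000 UMIs in cluster 5 against 0.327 to 0.349 elsewhere, and had 0.400 against 0.333 to 0.364 in culture 1. Meis2 had 0.785 in cluster 1 and 1.11 in cluster 3 of culture 1, and 0.713 and 1.04 in culture 2, while cluster 5 had 0.859 in culture 1 and 1.29 in culture 2, so its place in the order was not shared by the cultures. Nr2f2 was detected in 1.21%, 1.06%, 2.68% and 2.94% of cells of clusters 1 to 4 in culture 1, and in 1.24%, 1.54%, 2.36% and 1.58% in culture 2, and had its lowest share in cluster 5, with 4 of 531 cells and 1 of 209. Median depth in cluster 5 was 14411 and 11950 UMIs, below that of every other cluster used. The part of depth, of the clusters' make-up and of free RNA in these differences was not tested.

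**Figure D5:**
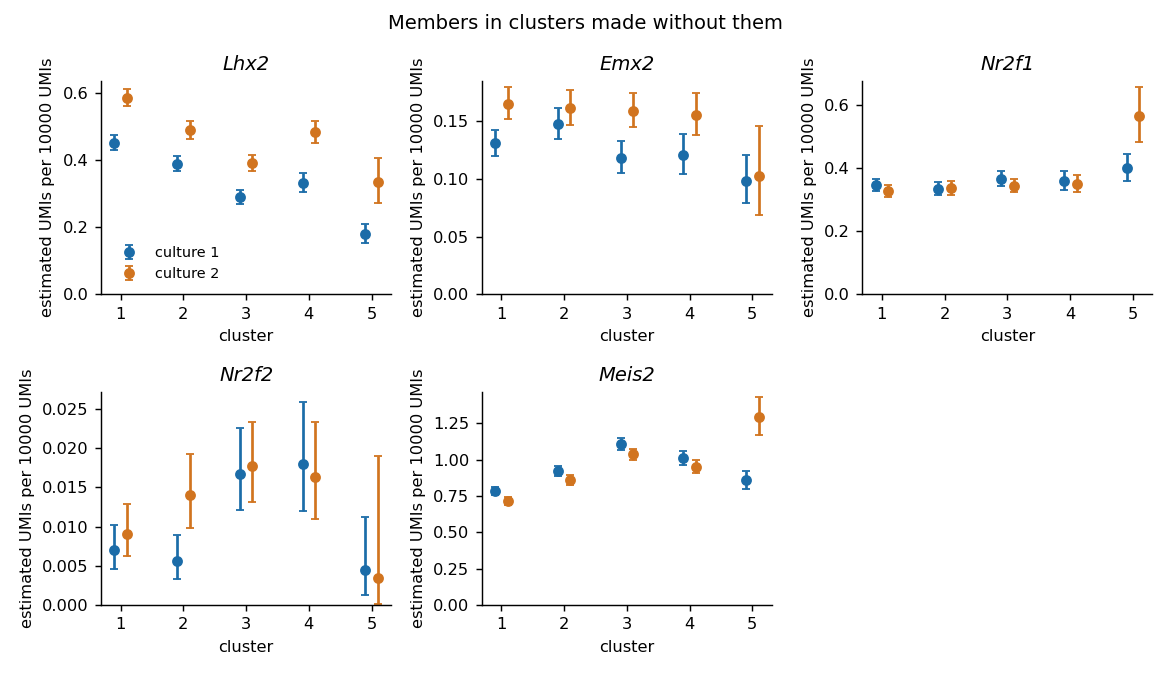
Estimated UMIs per 10000 UMIs (y axes from 0) of each member in the 5 clusters used, by culture, with 95% Poisson intervals. Lhx2 is highest in cluster 1 (0.453 and 0.588) and lowest in cluster 5 (0.180 and 0.334), Emx2 is lowest in cluster 5, and Nr2f1 in cluster 5 stands at 0.400 in culture 1 and 0.565 in culture 2.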

How the data were processed

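The libraries were 10x Chromium 3′ single-cell libraries, counted by the authors with Alevin of Salmon 1.3.0 against GRCm38, per the labels' processing notes. By the study's methods, spliced counts were kept and outlying cells, including those with a high doublet score, and rarely expressed genes were removed. The deposited expression values are a signal normalized for the depth of each cell by the authors, on a linear scale. Each cell's deposited total UMIs is a sum of the authors' estimated counts, and the deposited position in radians and Seurat stage are other values. Every per-sample column was mapped to a culture. No further filter or doublet caller was applied.

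Values were read as log2(value + 1). A position fit of 2 harmonics (R² of at least 0.05), a periodic loess with a span of 0.3, correlations adjusted for log2 total UMIs, its square and 2 harmonics, and Leiden clusters (resolution 0.5, 30 components, 15 neighbours) were made in each culture or read in each, for all 10666 genes. Estimated UMIs rest on the median of the lowest 20% of a gene's nonzero values times depth. Thinned detection is the expected share at 10000 UMIs. Python 3.11.15, numpy 2.4.6, scipy 1.17.1, scikit-learn 1.9.0 and leidenalg 0.10.2 were used, with GENCODE vM21 for coordinates and transcripts. The position fit, the loess maximum, the adjusted correlation and the cluster difference were tested on simulated data. Estimated UMIs, thinning and detection in the same cell were not. The plan assumed values close to counts, which the table does not hold.

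The members and gene lists were chosen with earlier results of these data known. The genes named are the members, the highest and lowest detected of the regional lists with Pax6 and the 3 caudal genes, the 5 most positive and 3 most negative correlates of each member, the 3 leading genes of each cluster and the marker lists, and a few genes that this rule names are not reported here. Pax6, Zic1, Tcf4 and Meis1 were named after their values were seen. No sample was left out, and replicates are cultures whose separate origin the labels do not describe further.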

Additional observations from a re-analysis of the deposited data

How the results depend on the processing

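The count of members varying with cell-cycle position was 0 and stayed 0 in 9 of 11 alternatives, among them a pseudocount of 0.1, total UMIs in the fit, 1 harmonic and a periodic loess. It was 1 at an R² threshold of 0.02, and 0 to 1 when 1 culture was left out, the 1 being Lhx2 in culture 2 alone. The count of correlated member pairs was 0 in all 11 alternatives. The count of members differing between clusters was 0 in 5 of 7 alternatives. It was 1 with a pseudocount of 0.1 (Lhx2), and 0 to 2 when 1 culture was left out and the remaining one was clustered alone, the 2 being Lhx2 and Meis2 in culture 1 alone. The cause was not tested. Some of these alternatives could not raise a count of 0, so their 0 carries no information. They are the stricter thresholds (an R² of 0.1, a correlation of 0.2 and a cluster difference of 1.0), the fit of 1 harmonic, and the restriction to genes detected in at least 10% of cells. No paired analysis was possible because all samples belong to 1 group.

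The share of cells with each member moved by more than the SD of the cultures in 11 of 30 alternatives, in 5 of them through thinning to 10000 UMIs, an alternative chosen after seeing the data, as was leaving out cells of shared barcodes. In a window of total UMIs common to both cultures, Lhx2 was detected in 39.1% and 45.2% of cells. The loess maximum of Emx2 was at 1.015π in each culture, and a span of 0.5 left it at 1.03π for culture 1 but put it at 0.170π for the other. Values of Nr2f2 rest on 118 and 151 estimated UMIs in all.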
